A study of Mus musculus with 6 samples.

Results

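Type I interferon response genes are genes that cells switch on when type I interferon binds its receptor. Here 33 such genes, named by symbol and leaving out the IRG and guanylate-binding protein families of interferon-inducible GTPases, were followed in flow-sorted marginal zone (MZ) B cells, and all 33 were found among the 55487 genes of the table. MZ B cells are B cells at the border of the splenic white pulp that carry much complement receptor 2 and answer blood-borne antigens early. RNA was sequenced from mice aged 14 weeks, in 3 libraries of CD55KO mice, which lack the complement regulator CD55, and 3 libraries of WT C57BL/6 mice, with no treatment named for either group. The sources used here do not give how the CD55KO allele was made or its strain background. They also do not say that each library is a different mouse, so a p-value here reflects library-to-library spread, part or all of which may be technical.

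Type I interferons signal through the receptor chains IFNAR1 and IFNAR2 and the kinases JAK1 and TYK2 to a transcription factor complex that holds STAT2 and IRF9. That complex binds a short promoter sequence, the interferon-stimulated response element, and induces a shared set of antiviral genes, among them further members of the pathway such as Irf7. B cells express the receptor, and many of these genes have a low level of expression without infection.

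Total counts were 20056111 to 30784090 per library. Levels are CPM (each count relative to its library total) scaled by TMM, a method that equalises library composition, and are means ± SD over 3 libraries where an error is given. Cd55 had 7.53 ± 1.36 CPM in CD55KO against 118 ± 7.69 CPM in WT (n = 3). The B cell gene Ms4a1 and the MZ B cell genes Cr2, Cd1d1 and S1pr3 were abundant in all 6 libraries, with Cr2 at 1032 to 1171 CPM and S1pr3 at 369 to 456 CPM. The replicate 3 library of CD55KO stood apart from the other 5 in the interferon response genes, and the results below are given with and without it.

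No member passed the test between the genotypes, while 32 of the 33 members had lower fitted levels in CD55KO. All 33 passed the filter on low counts. By edgeR's quasi-likelihood test, 0 members had an adjusted p under 0.05, where 0.399% of the 13794 tested genes did (0.261% lower in CD55KO), and the smallest adjusted p was 0.352. DESeq2 and limma-voom also called 0 members. An unadjusted p under 0.05 was found for 8 members, all lower in CD55KO (24.2% of the members), against 4.30% of all tested genes lower at that p. Negative log2 fold changes were found for 49.6% of all tested genes. The median log2 fold change of the members was -0.22, against 0.0015 over all tested genes. The members are induced together, so they are not independent of each other and the count of 32 is not a count of separate observations. In bulk samples fewer cells of a type and less RNA per cell cannot be told apart.

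The CD55KO replicate 3 library carried most of the difference in the members' median. It was the lowest of the 6 libraries for 27 of the 33 members, against 16.4% of all tested genes, and the other 6 members were lowest in CD55KO replicate 1. It lay under all 3 WT libraries for 31 members (93.9% of the members), against 25.8% of all tested genes. CD55KO replicate 1 did so for 17 members (51.5%), against 27.5% of all tested genes. CD55KO replicate 2 did so for 10 members (30.3%), against 25.5% of all tested genes. Measured in log2 CPM from the WT mean, the members had median deviations of -0.16, -0.08 and -0.44 for CD55KO replicates 1 to 3, while the WT libraries lay between -0.04 and 0.04. Without CD55KO replicate 3 the median log2 fold change was -0.09, and 27 of 33 members had negative log2 fold changes. The mean of CD55KO replicates 1 and 2 was below the WT mean for 27 members, against 49.8% of all tested genes. The 8 members at an unadjusted p under 0.05 with all libraries had log2 fold changes of -0.53 (Oas2) to -0.24 (Zbp1) there. Without CD55KO replicate 3 theirs were -0.34 (Oas2) to -0.14 (Ifit1). In that fit 2 members had an unadjusted p under 0.05 with lower levels, against 4.1% of all tested genes. That p count was 3 without WT replicate 2 and 1 without WT replicate 3, against 3.71% and 4.01% of all tested genes.

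**Figure D1:**
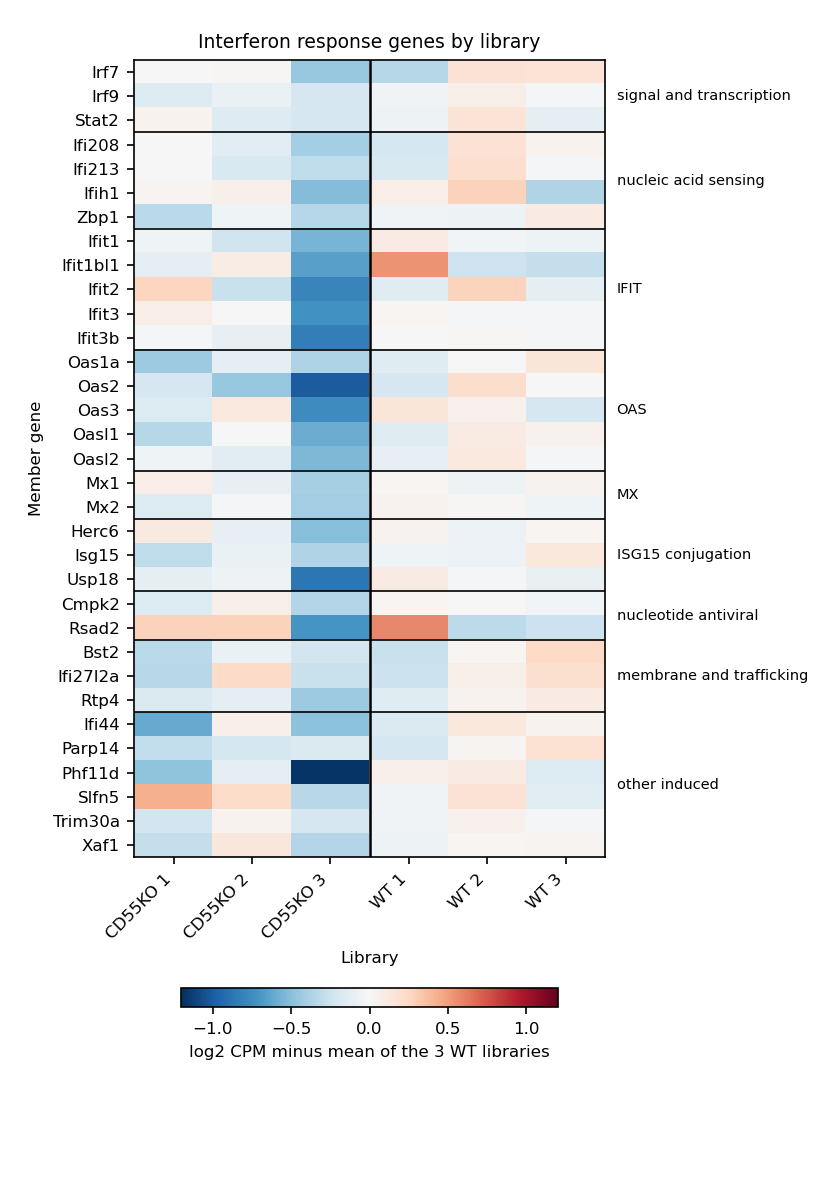
Heat map of the 33 members (rows, grouped by role) in the 6 libraries (columns). Colour is the log2 CPM minus the mean of the 3 WT libraries, blue for lower and red for higher. The column of CD55KO replicate 3 is blue in all 33 rows, from -1.18 for Phf11d to -0.18 for Parp14.

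For 8 members CD55KO replicate 3 lay under the other 5 libraries by more than the whole range of those 5 (0.942% of all tested genes), and no other library did so for any member. These 8, chosen after their values were seen, were Ifit3, Ifit3b, Usp18, Herc6, Mx1, Mx2, Oasl2 and Oas3. Ifit3 is the clearest example. It had 101 and 95.5 CPM in CD55KO replicates 1 and 2, 96.7, 94.6 and 94.6 CPM in WT replicates 1 to 3, and 57.8 CPM in CD55KO replicate 3. The 5 other libraries thus spanned 94.6 to 101 CPM across both genotypes. The fitted log2 fold change of Ifit3 was -0.17 with all libraries (adjusted p = 0.912) and 0.04 without CD55KO replicate 3.

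The response element core (GAAA, then any 2 bases, then GAAA) was searched on both strands in RefSeq promoter windows (GRCm38.p6) from 250 bases before to 50 after each start, counting overlapping copies. Windows were found for 25 of the 33 members. There was none for Ifi27l2a, Mx1, Mx2, Oas2, Parp14, Rtp4, Usp18 and Zbp1. The core was present for 15 of the 25 (60.0%), against 3.99% of the 27025 genes in the promoter table. The stretches below show the core upstream of 8 members whose values follow. For Ifit3, Ifit3b and Oas3, CD55KO replicate 3 lay under the other 5 libraries by more than their range. Oas1a and Bst2 were lowest in CD55KO replicate 1. The core is in capitals (TTTC first where the core lies on the opposite strand).
Isg15, chr4:156200846-156200925, minus strand: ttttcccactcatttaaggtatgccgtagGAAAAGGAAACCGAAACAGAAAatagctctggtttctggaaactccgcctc
Ifit1, chr19:34640759-34640838, plus strand: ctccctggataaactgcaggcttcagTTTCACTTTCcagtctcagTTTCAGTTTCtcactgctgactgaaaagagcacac
Ifit3, chr19:34583355-34583434, plus strand: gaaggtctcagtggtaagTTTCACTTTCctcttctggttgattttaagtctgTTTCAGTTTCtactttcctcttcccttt
Ifit3b, chr19:34607751-34607830, plus strand: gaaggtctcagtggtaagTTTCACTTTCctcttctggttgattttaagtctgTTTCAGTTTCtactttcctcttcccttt
Oas3, chr5:120777690-120777769, minus strand: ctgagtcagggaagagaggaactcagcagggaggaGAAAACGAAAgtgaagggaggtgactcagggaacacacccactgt
Oas1a, chr5:120907526-120907605, minus strand: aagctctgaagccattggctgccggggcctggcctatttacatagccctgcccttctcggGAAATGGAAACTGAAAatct
Bst2, chr8:71537555-71537634, minus strand: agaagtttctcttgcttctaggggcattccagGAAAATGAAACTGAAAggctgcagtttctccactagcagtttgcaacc
Rsad2, chr12:26456528-26456607, minus strand: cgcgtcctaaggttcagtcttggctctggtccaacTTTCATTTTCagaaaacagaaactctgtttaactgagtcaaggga

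The Isg15 stretch held 3 overlapping copies, Oas1a and Bst2 held 2 overlapping copies each, and Ifit1, Ifit3 and Ifit3b held 2 separate ones. The Ifit3 and Ifit3b stretches were identical in all 80 bases. In CD55KO replicate 3 the deviation from the WT mean, in log2 CPM, had a median of -0.41 over the 15 members with the core (range -0.83 to -0.20) and of -0.50 over the 10 without it (range -1.18 to -0.20), so the ranges overlapped. A match is a description of the letters in this window and does not show that a factor binds there.

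**Figure D2:**
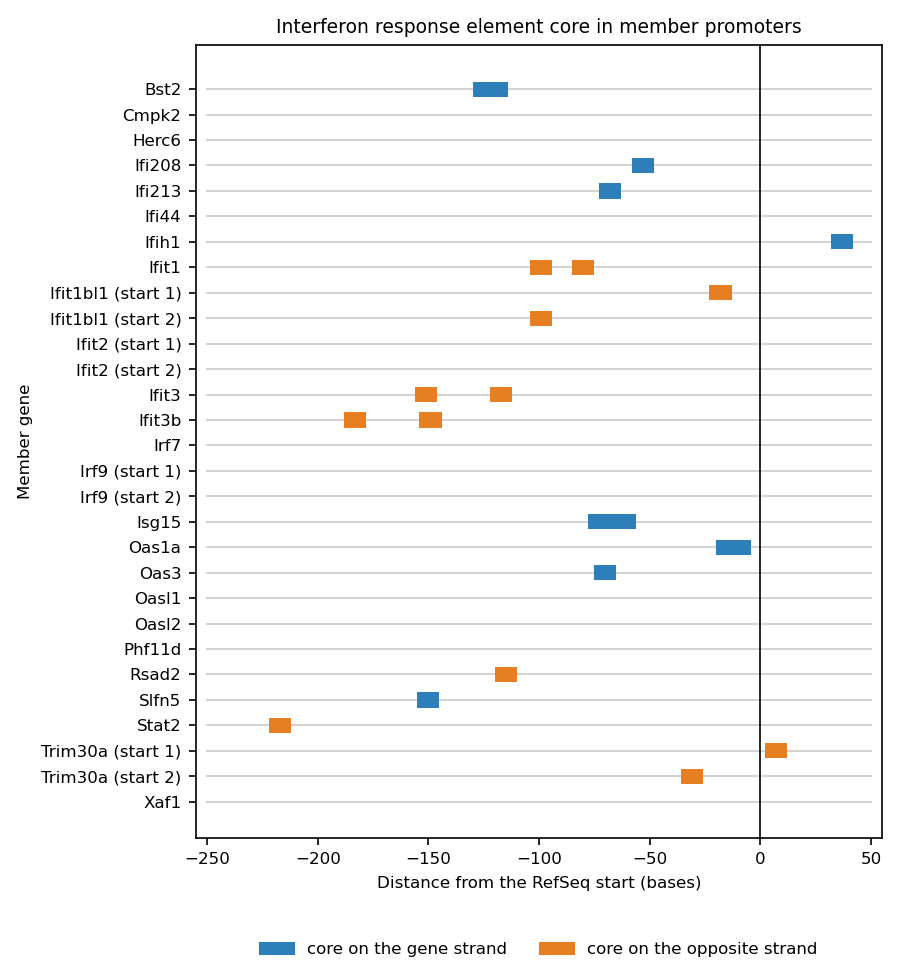
Position of each core copy (boxes, blue on the gene strand and orange on the opposite strand) in the promoter windows of 25 members, as the distance in bases from the RefSeq start. Copies of Isg15 and Oas1a lie within 78 bases upstream of the start, while the copies of Ifit3b begin at -188 and -154.

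Among the members that carry the interferon signal, Irf9 was the 1 gene whose genotypes did not overlap. Irf9, the DNA-binding subunit of the interferon-activated complex (chromosome 14, 55603571 to 55610030, plus strand, GRCm38), had 137, 145 and 134 CPM in CD55KO replicates 1 to 3 and 149, 161 and 151 CPM in WT. All CD55KO libraries were below all WT libraries, with a log2 fold change of -0.15 ± 0.07 (SE, adjusted p = 0.602). Stat2, its partner, had 99.2 ± 9.24 CPM in CD55KO against 107 ± 10.9 CPM in WT (n = 3). Irf7, the factor that amplifies interferon production, had 65.0, 65.7 and 47.2 CPM in CD55KO against 51.4, 73.1 and 73.0 CPM in WT. WT replicate 1 lay near the lowest CD55KO library for Irf7, so the genotypes overlapped. In CD55KO replicate 3 these 3 genes had a median deviation of -0.20 in log2 CPM.

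Sensors of foreign nucleic acid were followed through 4 members. Zbp1, which binds Z-form nucleic acid and can start necroptosis, had 35.3, 42.6 and 34.9 CPM in CD55KO against 43.1, 42.4 and 47.5 CPM in WT. CD55KO replicate 2 lay within the WT range, and the log2 fold change was -0.24 ± 0.10 (SE, adjusted p = 0.482). Ifih1, which encodes the RNA sensor MDA5, was low, at 5.18 to 7.77 CPM in CD55KO against 5.79 to 9.07 CPM in WT. Ifi208 and Ifi213, members of the PYHIN family of DNA-binding proteins, lie on chromosome 1, as Cd55 does, at 43.2 and 43.1 Mb from it. They had log2 fold changes of -0.18 ± 0.12 and -0.17 ± 0.11 (SE), and both were lowest in CD55KO replicate 3.

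The IFIT genes, which encode RNA-binding proteins that block translation of viral RNA, lie together on chromosome 19. As a group they were the role with the lowest median in CD55KO replicate 3, with a deviation of -0.72 in log2 CPM, against -0.03 and -0.10 in CD55KO replicates 1 and 2. Ifit1 had 23.3, 20.5 and 16.4 CPM in CD55KO against 25.8, 23.6 and 23.1 CPM in WT. CD55KO replicate 1 overlapped the WT libraries, and the log2 fold change was -0.27 ± 0.12 (SE, adjusted p = 0.558). Ifit3b had 25.8, 24.5 and 14.8 CPM in CD55KO against 26.3, 26.5 and 26.0 CPM in WT. The genotypes did not overlap for Ifit3b, although CD55KO replicate 1 was within 1 CPM of the WT libraries, and the adjusted p was 0.744. Ifit2 ranged from 7.85 CPM in CD55KO replicate 3 to 16.4 CPM in WT replicate 2. Ifit1bl1 was highest in WT replicate 1 at 14.7 CPM, against 8.49 and 8.28 CPM in WT replicates 2 and 3.

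None of the 5 members of the OAS family passed the adjusted threshold, and 3 had an unadjusted p under 0.05 with lower levels, where 4.30% of all tested genes did. OAS1, OAS2 and OAS3 proteins make 2'-5'-linked oligoadenylates that activate RNase L, while OASL proteins are relatives that act without this product in part. Oas1a had 26.2, 33.0 and 27.5 CPM in CD55KO against 32.3, 35.6 and 39.3 CPM in WT. It was lowest in CD55KO replicate 1, and its log2 fold change was -0.31 ± 0.11 (SE, adjusted p = 0.352) with all libraries and -0.28 without CD55KO replicate 3. Oas2 had 9.13, 7.61 and 5.22 CPM in CD55KO against 9.08, 12.1 and 10.4 CPM in WT, a log2 fold change of -0.53 ± 0.19 (SE, adjusted p = 0.393). Only CD55KO replicate 1 reached the WT range of Oas2. Oasl1, a negative regulator of Irf7 translation, had 30.7, 38.9 and 25.7 CPM in CD55KO against 35.1, 41.6 and 40.1 CPM in WT (adjusted p = 0.558). Oas3 and Oasl2 overlapped between the genotypes in CD55KO replicates 1 or 2 and were lowest in CD55KO replicate 3, at 6.90 and 9.63 CPM.

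**Figure D3:**
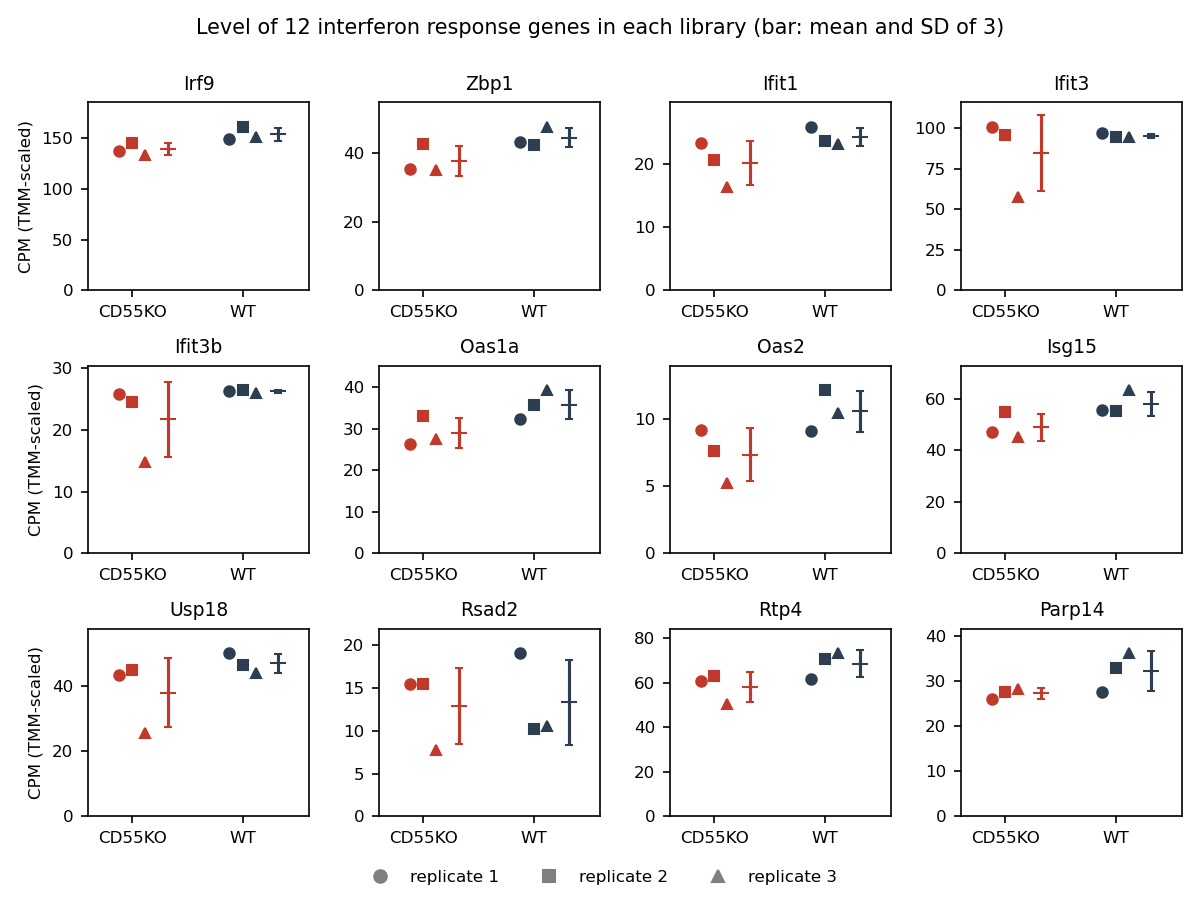
Level of 12 members in each library (TMM-scaled CPM on a linear axis from 0), red for CD55KO and dark blue for WT, with the symbol shape giving the replicate and the bar the mean and SD of 3 libraries. Ifit3, Ifit3b and Usp18 show 5 libraries at a similar level and CD55KO replicate 3 below them, while Oas1a and Parp14 do not.

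Mx1 and Mx2, dynamin-like GTPases that trap viral ribonucleoproteins, are annotated in the table as polymorphic pseudogenes. Mx2 had 5.28, 5.87 and 4.41 CPM in CD55KO against 6.07, 5.97 and 5.68 CPM in WT (adjusted p = 0.840). CD55KO replicate 2 lay within the WT range. Mx1 had 10.8 ± 1.78 CPM in CD55KO against 11.8 ± 0.43 CPM in WT (n = 3).

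Genes of the ISG15 system, which links the ubiquitin-like protein ISG15 to other proteins, included the third member without overlap. Isg15 had 46.9, 54.98 and 45.01 CPM in CD55KO against 55.8, 55.1 and 63.4 CPM in WT. The highest CD55KO library lay just under the lowest WT library, and the log2 fold change was -0.25 ± 0.09 (SE, adjusted p = 0.429). Usp18, which removes ISG15 and also damps the receptor, had 43.2, 44.99 and 25.7 CPM in CD55KO against 50.1, 46.5 and 44.1 CPM in WT. The 5 other libraries lay close together across the genotypes, and CD55KO replicate 3 lay well under them. Herc6, a ligase for ISG15 in mice, had 28.5, 24.6 and 18.5 CPM in CD55KO against 25.2 to 27.1 CPM in WT. In all, 3 of 33 members (9.09%) had all CD55KO libraries under all WT libraries, close to the 6.84% of all tested genes that did.

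Rsad2 and Cmpk2, neighbours on chromosome 12 that act on nucleotides, showed no common difference between the genotypes. Cmpk2, a mitochondrial nucleotide kinase, had 13.8, 16.4 and 12.1 CPM in CD55KO against 15.7, 15.6 and 15.2 CPM in WT, with a fitted log2 fold change of -0.14 ± 0.13 (SE, adjusted p = 0.833). Rsad2, which encodes viperin, had 15.5, 15.5 and 7.78 CPM in CD55KO against 19.1, 10.2 and 10.6 CPM in WT. Its WT libraries were split, with replicate 1 above all CD55KO libraries and the others below CD55KO replicates 1 and 2. The fitted log2 fold change of Rsad2 was -0.03 with all libraries and 0.23 without CD55KO replicate 3.

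Of the 3 membrane and trafficking members, Bst2 and Ifi27l2a were lowest in CD55KO replicate 1 and Rtp4 in CD55KO replicate 3. Rtp4, which encodes a chaperone of receptors on their way to the cell surface, had 60.8, 63.0 and 50.5 CPM in CD55KO against 61.9, 70.6 and 73.4 CPM in WT, with a fitted log2 fold change of -0.24 ± 0.09 (SE, adjusted p = 0.448). CD55KO replicate 2 lay above WT replicate 1. Bst2, or tetherin, which holds budding virus at the membrane, had 38.6, 45.5 and 41.3 CPM in CD55KO against 40.0, 49.0 and 57.1 CPM in WT. Its log2 fold change was -0.22 both with all libraries and without CD55KO replicate 3, and -0.09 without WT replicate 3. Ifi27l2a, a small mitochondrial protein gene, varied between 110 and 162 CPM within CD55KO alone.

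Of the other 6 induced members, Ifi44, Parp14 and Trim30a were lowest in CD55KO replicate 1, and Phf11d, Slfn5 and Xaf1 in CD55KO replicate 3. Parp14, an ADP-ribosyltransferase, had 26.1, 27.7 and 28.4 CPM in CD55KO against 27.6, 32.9 and 36.3 CPM in WT. CD55KO replicate 3 was here the highest CD55KO library, and the log2 fold change of -0.24 ± 0.10 (SE, adjusted p = 0.534) was -0.27 without it. Without WT replicate 3 the log2 fold change of Parp14 was -0.15. Slfn5, of the Schlafen family, was the 1 member with a positive log2 fold change, 0.13 ± 0.17 (SE, adjusted p = 0.911), and it had 24.3, 21.0 and 14.3 CPM in CD55KO against 17.5, 20.3 and 16.5 CPM in WT. Phf11d had the most negative log2 fold change, -0.55 ± 0.32 (SE), but only 1.53 ± 0.56 CPM in CD55KO against 2.24 ± 0.22 CPM in WT (n = 3). Ifi44 was as low, at 1.36 to 2.30 CPM. Xaf1, which encodes a partner of an apoptosis inhibitor, and Trim30a, a ubiquitin ligase gene, were higher in CD55KO replicate 2 than in at least 1 WT library.

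**Figure D4:**
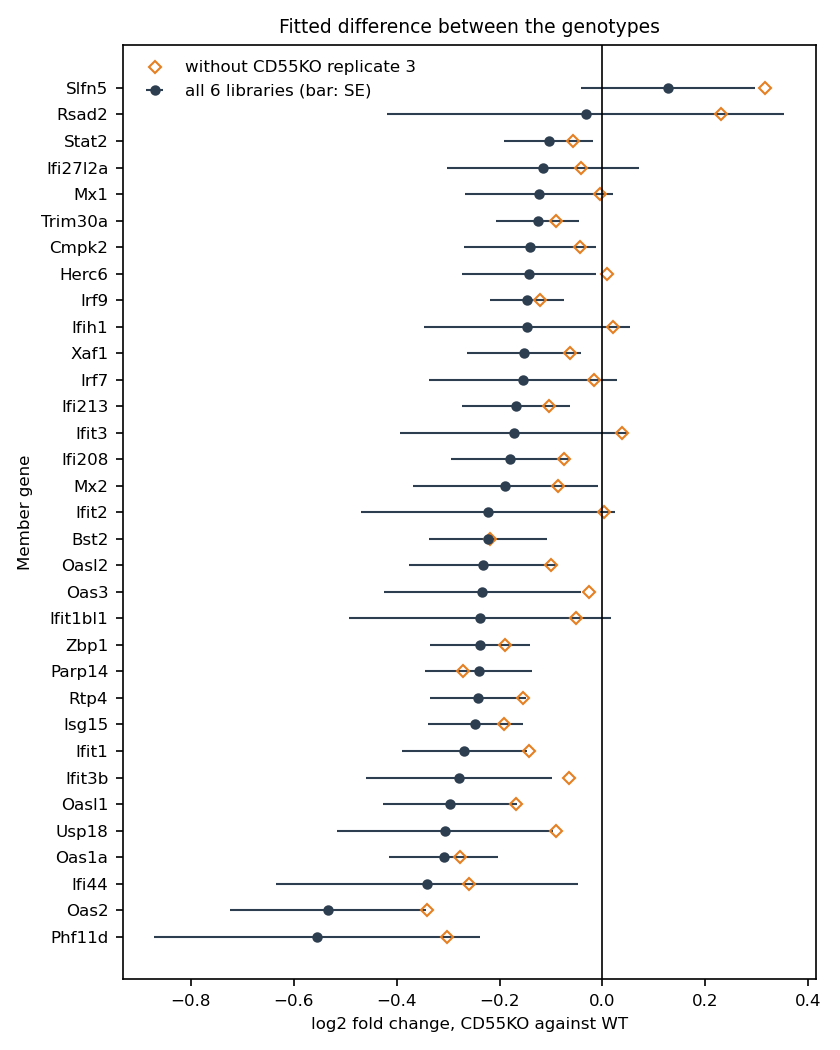
Fitted log2 fold change of CD55KO against WT for the 33 members, sorted (filled circles with SE bars, all 6 libraries), and the same without CD55KO replicate 3 (open diamonds). With all libraries 32 circles lie left of 0, and without that library 27 diamonds do.

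Per kilobase of annotated exon, the most abundant members in WT were Ifi27l2a at 301, Isg15 at 76.8, Ifit3 at 54.6 and Bst2 at 53.9 CPM per kb. The lowest were Ifi44 at 0.34, Phf11d at 0.50 and Ifih1 at 0.93 CPM per kb. Values in the file were not whole numbers for 17 members, among them Ifit1, Ifit3, Ifit3b, Oas1a, Ifi208, Ifi213, Mx1 and Mx2. Of the 75-base windows of its longest transcript, Ifit3 shared 41.1% with Ifit3b, and Oas1a shared 47.6% with Oas1g, so the split of counts between these pairs is uncertain. Over the 16 members with whole counts in every library the median log2 fold change was -0.22, and 13 were lowest in CD55KO replicate 3. Mx1 and Mx2 shared 2.21% and 3.04% of their windows with each other.

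Genes of the pathway outside the members, 139 listed by role, are given beside the members. Of these 106 were tested and 0 passed the adjusted threshold by edgeR, while 10 lower and 2 higher genes had an unadjusted p under 0.05. Over all tested genes 4.30% were lower at that p and 8.60% differed in either direction. The median log2 fold change was -0.07, with 74 of 106 negative (69.8%), against 49.6% of all tested genes. In CD55KO replicate 3 their median deviation in log2 CPM was -0.10. Of the 106, 39 (36.8%) were lowest in that library, against 16.4% of all tested genes. Interferon ligand genes were not expressed at a measurable level. Of 21 ligand genes, Ifnb1 included, 19 had 0 counts in all 6 libraries, which allows up to 0.0975 to 0.150 CPM per library by counting error alone, and Ifnk and Ifng had at most 3 counts.

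The receptor chains and kinases were expressed in all 6 libraries, and 0 of 7 passed the adjusted threshold by edgeR, with 0 at an unadjusted p under 0.05. All CD55KO libraries lay above all WT libraries for 2 of the 7, Ifnar2 and the kinase gene Jak2, against 998 of the 13794 tested genes. Jak2 had 13.4, 12.8 and 14.2 CPM in CD55KO against 9.62, 12.2 and 12.2 CPM in WT. Its fitted log2 fold change was 0.25 ± 0.13 (SE, adjusted p = 0.661). Ifnar1 had 45.5 ± 3.09 CPM in CD55KO against 48.8 ± 0.16 CPM in WT, and Ifnar2 had 48.5 ± 2.52 and 44.4 ± 1.61 CPM (n = 3). Jak1 had 364 ± 29.6 and 354 ± 4.18 CPM, and Tyk2 had 57.5 ± 3.92 and 61.6 ± 5.82 CPM (n = 3). Over the 7 receptor and kinase genes 3 had negative and 4 positive log2 fold changes. Upstream of interferon, Irf3 had 111 ± 5.73 and 119 ± 7.63 CPM, Tlr7 39.7 ± 1.42 and 40.5 ± 2.32 CPM, and Tlr9 7.33 ± 0.63 and 7.68 ± 0.99 CPM (n = 3).

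Among the other induced genes, those with the smallest p did not follow the CD55KO replicate 3 pattern in every case. Parp10, an ADP-ribosyltransferase gene, had 32.9, 30.7 and 27.5 CPM in CD55KO against 37.0, 41.9 and 39.4 CPM in WT. All CD55KO libraries were below all WT libraries, with a log2 fold change of -0.38 ± 0.09 (SE, adjusted p = 0.126 by edgeR). Tap1, which moves peptides to MHC class I, had 211, 218 and 235 CPM in CD55KO against 254, 265 and 269 CPM in WT, with a fitted log2 fold change of -0.25 ± 0.08 (SE, adjusted p = 0.301). CD55KO replicate 3 was the highest of the CD55KO libraries for Tap1. Rnf213 had 27.4, 29.9 and 27.1 CPM in CD55KO against 32.1, 33.7 and 34.7 CPM in WT (adjusted p = 0.376). In this group of 70 tested genes the median log2 fold change was -0.08 and 55 were negative (78.6%), against 49.6% of all tested genes. All CD55KO libraries lay under all WT libraries for 13 of the 70, against 6.84% of all tested genes. They lay above all WT libraries for 2 of the 70, against 998 of the 13794 tested genes.

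**Figure D5:**
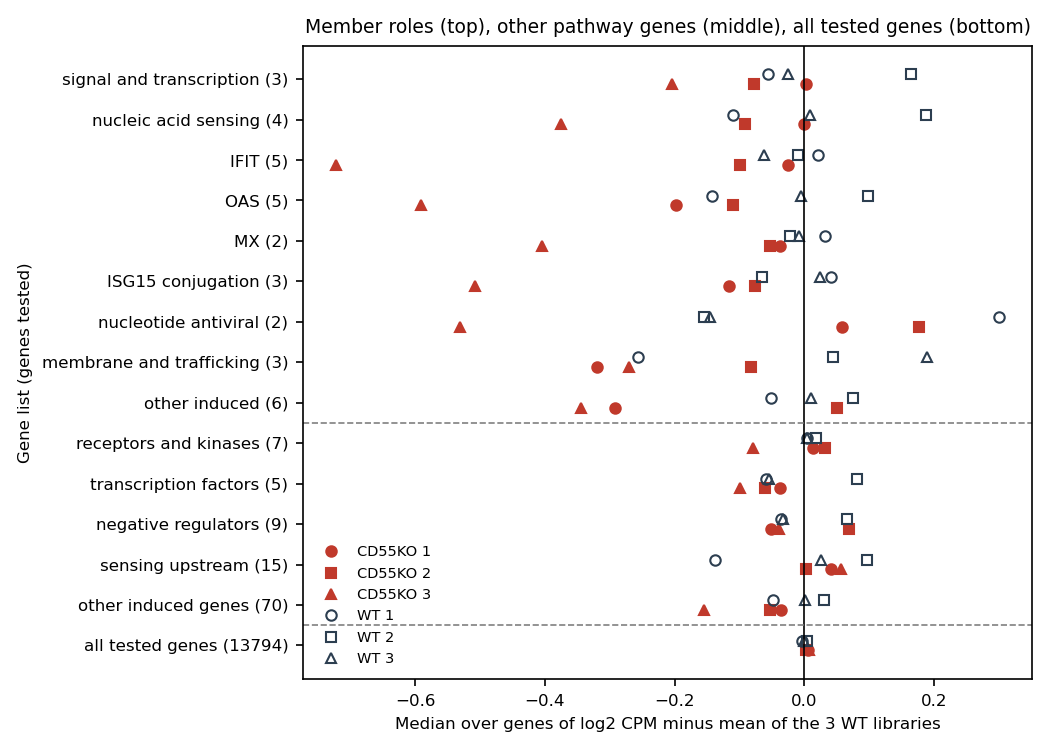
Median over the genes of each list of log2 CPM minus the mean of the 3 WT libraries, for each library (red filled, CD55KO; open, WT), with member roles at the top, other pathway genes in the middle and all tested genes at the bottom. The triangle of CD55KO replicate 3 lies between -0.72 and -0.20 for the member roles and between -0.15 and 0.06 for the other pathway lists.

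Among the measures of other cell types and of depth, summed erythroid transcripts were lowest in CD55KO replicate 3, and their part in the result was not tested. Of the 6 erythroid genes 5 were lowest in that library, and Alas2 was lowest in WT replicate 3. The summed level of the 6 genes was 35.8 CPM in CD55KO replicate 3, against 1989 and 1590 CPM in CD55KO replicates 1 and 2. It was 4351, 356 and 105 CPM in WT replicates 1 to 3. The members' median deviation in WT replicate 3, the next lowest in that sum, was -0.01. The total count of CD55KO replicate 3, 29209647, and its TMM factor of 0.978 lay within the range of the other libraries.

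Of the markers of other cell types only Xbp1 passed the adjusted threshold by edgeR. The part of these markers in the result was not tested. Of 11 markers of plasmacytoid dendritic cells, which make much type I interferon, Siglech had 0.35 to 0.88 CPM, with 0.46 CPM in CD55KO replicate 3, and Cd209d and Cd300c had 0 counts in all libraries. Pacsin1 had the smallest p of that list, with 31.8, 35.9 and 31.6 CPM in CD55KO against 24.5, 24.5 and 26.5 CPM in WT. All CD55KO libraries were above all WT libraries for Pacsin1, with a log2 fold change of 0.40 ± 0.09 (SE, adjusted p = 0.100). The 11 markers summed to 3507 to 4026 CPM in CD55KO against 3730 to 4732 CPM in WT, nearly all from Ly6d, Pld4 and Tcf4, which B cells also express.

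The 15 macrophage and monocyte genes summed to 35.7 to 42.6 CPM in CD55KO against 26.6 to 33.0 CPM in WT, and Siglec1 was at 0 in 2 libraries. Most of that difference came from Cd68, at 16.1 ± 0.78 against 11.8 ± 1.28 CPM, and Spic, at 11.8 ± 1.42 against 7.27 ± 1.145 CPM (n = 3). Neither gene passed the adjusted threshold by edgeR (adjusted p = 0.209 for Cd68 and 0.0901 for Spic). Of the 9 tested genes of the list 5 had negative log2 fold changes, Lyz2, Csf1r, Ly6c2 and Hmox1 among them. The 8 plasma cell genes summed to 148 to 162 CPM in CD55KO against 176 to 240 CPM in WT, mostly from Xbp1 and Irf4, which B cells also express. Xbp1, a transcription factor of secretory cells, was lower in CD55KO, at 78.5 ± 6.21 CPM against 118 ± 14.0 CPM (n = 3), with a log2 fold change of -0.59 ± 0.09 (SE, adjusted p = 0.00471 by edgeR). Irf4 had a log2 fold change of 0.10 ± 0.10 (SE, adjusted p = 0.847). Of the 7 tested plasma cell genes 5 had negative and 2 positive log2 fold changes. For 3 of them, Prdm1, Xbp1 and Jchain, all CD55KO libraries lay under all WT libraries, against 6.84% of all tested genes. The log2 fold change was -0.76 ± 0.23 for Prdm1 (SE, adjusted p = 0.254 by edgeR) and -1.44 ± 0.70 for Jchain (SE, adjusted p = 0.694).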

How the data were processed

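Messenger RNA of sorted MZ B cells was sequenced in 6 libraries. The labels' protocols name the RNeasy micro kit for RNA and SMARTer Ultra Low for libraries, a chemistry without strand information. The deposited values are estimated counts per gene, not scaled. DRAGEN, edgeR and limma are listed in the submitters' processing notes, with no role stated. The authors' alignment settings, genome build and annotation: not given in the sources used here. No sample column was left out (0 unmapped).

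Of 55774 rows, 287 repeats of a gene ID were removed and counts were rounded to whole numbers. Between 30.9 and 31.9% of nonzero values were not whole (tolerance 0.005). edgeR 4.0.16 was used in R 4.3.3 with filterByExpr (minimum count 10), TMM, the robust quasi-likelihood F-test with genotype alone, and Benjamini-Hochberg adjustment over 13794 genes (threshold 0.05). The SE is the log2 fold change over the square root of F. Deviations use log2 CPM with a prior count of 2. The test was checked on simulated data in which the changed genes differed by more than the fitted change of any member. That check does not show the power for changes as small as those of the members. Positions and exon lengths come from GENCODE M21 (GRCm38), matched by gene ID. Marker lists of other cell types were summed per library.

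The members and lists were chosen with earlier results of these data known. Values in every library are given for members with an unadjusted p under 0.05, without overlap, or with the smallest p of their role, and for others picked after their values were seen. The pathway genes given with their levels are Ifnar1, Ifnar2, Jak1, Tyk2, Irf3, Tlr7, Tlr9 and the 3 with the smallest p. Jak2 was added after its values were seen, as a gene without overlap. The result of 1 further listed pathway gene is not reported here, and that gene is not in the pathway counts, so those counts do not cover the whole list. Alternatives were DESeq2 1.42.0, limma-voom (limma 3.58.1), other scalings and filters, a replicate block, no immunoglobulin genes and each library left out. Same-numbered libraries did not deviate together (correlations 0.07, -0.12 and 0.17), and libraries of a genotype differed by more than sampling noise.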

Additional observations from a re-analysis of the deposited data

How the results depend on the processing

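No member was called under any of the 14 other settings, with the smallest adjusted p 0.098 with no count filter. Without 1 library, 27 to 33 members had negative log2 fold changes. In these fits 1 to 12 members had an unadjusted p under 0.05 with lower levels, against 3.57 to 4.37% of all tested genes. The median log2 fold change was -0.29 to -0.09. It was lowest without CD55KO replicate 2 and nearest 0 without CD55KO replicate 3. With the replicate block 0 members were called and the median was -0.21. There 11 members had an unadjusted p under 0.05 with lower levels, against 3.97% of all tested genes. Of the other pathway genes, DESeq2's Wald test called 1 and the fit with no count filter called 1, Parp10 both times. Over all genes, DESeq2 called 137 and the fit with no count filter 232, against 55. CD55KO replicate 3 was the lowest library for 27 members with DESeq2 size factors and 29 with library totals, settings added after seeing the data. The looser core GAAANNGAA was found for 16 members. Groups of 3 libraries limit what could be detected.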
